A study of Mus musculus with 4 samples.

Results

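The 10 circadian clock factors described here are transcription factors and regulators of the molecular clock and of its direct output: Bhlhe40, Bhlhe41, Nfil3, Dbp, Tef, Per1, Per2, Arntl, Clock and Nr1d1. They were read by gene symbol among the 32285 genes of 4 single-nucleus RNA sequencing matrices from mouse liver, and each symbol was found once. The fasted group held 2 libraries from mice fasted for 16 to 24 h, and the fed group held 2 libraries from fed controls. Each library was 1 preparation of nuclei from 50 mg of frozen liver pooled from 8 mice, and the labels do not say whether fed 1 and fed 2, or fasted 1 and fasted 2, share mice. P-values therefore measure the spread between preparations, which may be technical. Strain, genotype, sex, age and the time of day of collection are not given in the sources used here.

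The mammalian clock is a feedback loop. The paired activators Arntl (also called Bmal1) and Clock bind E-box elements and switch on Per1, Per2, Nr1d1, Dbp, Tef, Bhlhe40 and Bhlhe41. PER proteins, with CRY partners, then inhibit the activators, while Nr1d1 (Rev-erb alpha) represses Arntl. Bhlhe40 and Bhlhe41 (Dec1 and Dec2) compete with the activators for the same E-boxes. Dbp and Tef activate, and Nfil3 represses, D-box genes, which in liver include genes of drug, bile acid and lipid metabolism. In liver the loop is set both by the time of day and by the time of feeding.

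The libraries fasted 1, fasted 2, fed 1 and fed 2 held between 8078755 UMIs (unique molecular identifiers, 1 per captured transcript) in fed 2 and 30955600 in fasted 1, and gave 4146 to 10150 nuclei each. Clusters were named from fixed markers and built without the clock genes listed here. By those markers, 18774 nuclei had hepatocyte markers, 5400 endothelial markers, 1957 Kupffer cell or macrophage markers and 1755 stellate cell markers. These are called by those names below, as hepatocyte-like and so on by markers alone. Of the 10 hepatocyte clusters, 8 drew at least 92.7% of their nuclei from 1 library, so the libraries stood apart within hepatocytes. Pairs of libraries shared 12 to 42 cell barcodes, at most 0.431% of a library. Levels are CPM, the UMIs of a gene per 1000000 UMIs of a cell type in a library. Log2 fold changes are fasted minus fed, with a standard error (SE).

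In hepatocytes, the transcriptional repressors Bhlhe40, Bhlhe41 and Nfil3 were the factors with the lowest fasted levels relative to fed. Bhlhe40, an E-box repressor that hypoxia also induces, had 33.4 and 28.3 CPM in fasted 1 and fasted 2, against 105 and 132 CPM in fed 1 and fed 2. Both fasted libraries lay below both fed libraries, with a log2 fold change of -1.99 (SE 0.33). Bhlhe41, its close relative, had 1.57 and 1.77 CPM in the fasted libraries, against 4.70 and 4.80 CPM in the fed libraries. Those levels rest on 33, 34, 79 and 32 UMIs, and again the groups did not overlap (log2 fold change -1.54, SE 0.55). Nfil3, the D-box repressor, had 7.34 and 10.7 CPM in fasted libraries, against 18.5 and 26.7 CPM in fed libraries, also without overlap (log2 fold change -1.36, SE 0.45).

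The activators lay the other way. Arntl had 8.96 and 32.9 CPM in fasted 1 and fasted 2, against 7.91 and 7.20 CPM in fed 1 and fed 2. Fasted 2 alone stood high, and the log2 fold change of 1.46 (SE 0.67) became 0.18 without fasted 2. Clock, the partner of Arntl, had 144 and 170 CPM in fasted libraries, against 123 and 75.4 CPM in fed libraries (log2 fold change 0.64, SE 0.34). The groups did not overlap, but the 2 fed libraries were farther apart than fasted 1 and fed 1.

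Among the negative limb, Per1, which also responds directly to glucocorticoids, had 59.7 and 65.4 CPM in fasted libraries, against 48.6 and 28.2 CPM in fed libraries (log2 fold change 0.68, SE 0.36). Per2, a core inhibitor of the activators, had 73.1 and 73.7 CPM in fasted libraries, against 66.6 and 63.4 CPM in fed libraries. The groups did not overlap but lay close together (log2 fold change 0.14, SE 0.29). Nr1d1 had 23.0 and 10.3 CPM in fasted libraries, against 30.3 and 22.3 CPM in fed libraries, and the groups overlapped (log2 fold change -0.70, SE 0.46).

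The D-box activators showed no separation by feeding. Dbp had 55.0 and 17.9 CPM in fasted 1 and fasted 2, against 56.7 and 36.1 CPM in fed 1 and fed 2 (log2 fold change -0.39, SE 0.55, and 0.19 without fasted 2). Tef had 373 and 315 CPM in fasted libraries, against 262 and 381 CPM in fed libraries (log2 fold change 0.05, SE 0.35, and -0.25 without fed 1). For both genes the groups overlapped, and the libraries of 1 group lay farther apart than the group means.

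**Figure D1:**
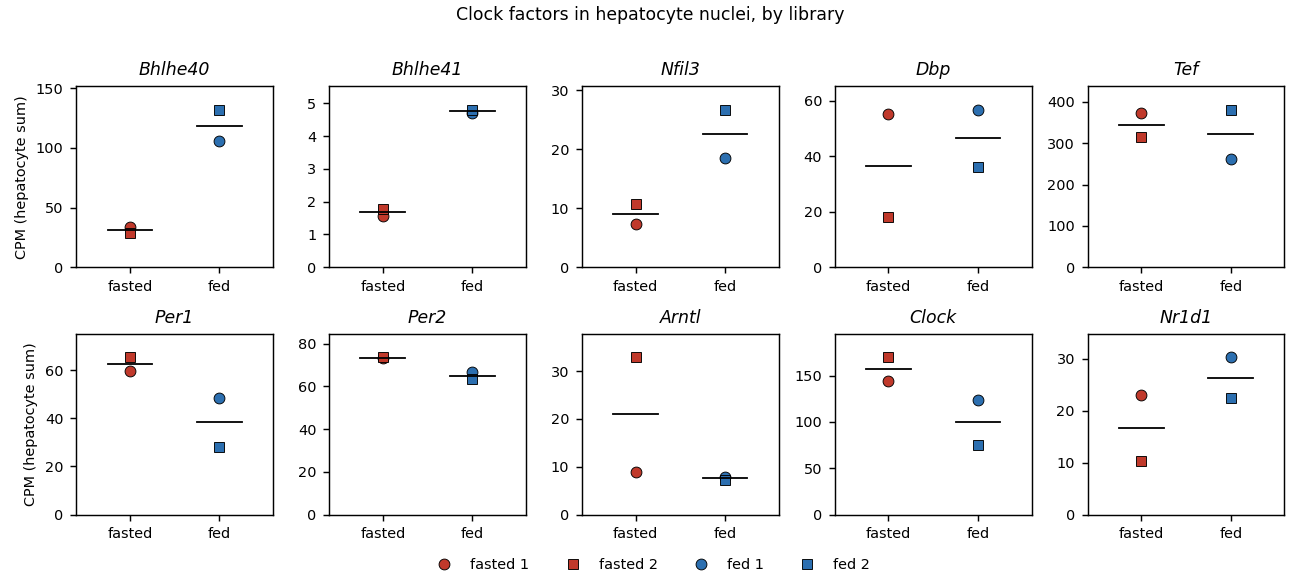
Level of each clock factor in hepatocyte nuclei, in CPM on axes that start at 0, with fasted libraries left and fed libraries right. Circles are library 1, squares are library 2 and the bar is the mean of 2 libraries. Bhlhe40, Bhlhe41 and Nfil3 lie lower in both fasted libraries, while Arntl is at 32.9 CPM in fasted 2 and between 7.20 and 8.96 CPM in the other 3.

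Across the 10 factors in hepatocytes, the fasted and fed libraries did not overlap for 7. Of these, 3 had the fasted pair lower and 4 (Per1, Per2, Arntl and Clock) had it higher. Of the 13995 genes tested, 36.3% did not overlap, 15.7% with the fasted pair lower and 20.7% with it higher. The median log2 fold change was -0.17 over the 10 factors and -0.01 over all genes. No factor passed an adjusted p of 0.05 in edgeR's quasi-likelihood test, which called 1 gene in all (0.00715%). Bhlhe40 had an unadjusted p of 0.000841 and an adjusted p of 0.428. Bhlhe40, Bhlhe41 and Nfil3 (3 of 10) had an unadjusted p under 0.05, all lower, as had 3.08% of all genes in that direction. DESeq2 called 163 genes (1.16%), among them Bhlhe40 alone of the factors (log2 fold change -2.02, adjusted p = 0.000615). With 1 library left out, whether Bhlhe40 and Nfil3 passed in edgeR depended on the library, and the count of all genes called moved widely too. Such a fit leaves 1 group with 1 library and measures no spread in that group, so its adjusted p is not given.

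No other clock gene was called by edgeR between fasted and fed hepatocytes. Of 20 listed names 19 were in the matrices and 18 were tested. Of these, 15 had a positive and 3 a negative log2 fold change, with a median of 0.20 against -0.01 over all genes. None had an edgeR unadjusted p under 0.05. Usp2, a deubiquitinase of clock proteins, had 81.5 and 76.0 CPM in fasted libraries, against 57.3 and 37.5 CPM in fed libraries (0.71, SE 0.32). Nr1d2, which encodes Rev-erb beta, had 188 and 144 CPM in fasted libraries, against 211 and 227 CPM in fed libraries (-0.44, SE 0.31). Ciart, a repressor of the activators, had a log2 fold change of 0.76 (SE 0.54), Per3 of 0.45 (SE 0.43) and Timeless of 0.51 (SE 0.53).

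Of the 10 factors, 6 overlap another gene on the opposite strand in GENCODE annotation of GRCm38 (mm10), and the sources used here do not say whether counting used strand. Dbp (chr7:45705088-45710203, + strand) overlaps Sphk2, which had 18.3 and 16.1 CPM in fasted hepatocytes, against 8.92 and 6.0 CPM in fed hepatocytes. Nr1d1 (chr11:98767932-98775333, - strand) overlaps Thra, the thyroid hormone receptor alpha gene, which had 5.91 and 15.9 CPM in fasted hepatocytes, against 2.26 and 20.1 CPM in fed hepatocytes. The antisense gene 0610040F04Rik at Bhlhe40 had 2.86 and 3.90 CPM in fasted hepatocytes, against 2.02 and 1.5 CPM in fed hepatocytes. Those at Tef (Gm17597) and Arntl (Gm45355) reached at most 1.61 and 0.048 CPM, and Gm43909 at Bhlhe41 was not analysed here. The values of these 6 factors are uncertain to that extent. Clock overlaps the processed pseudogene Ube2n-ps1 and Gm43658 on its own strand, which were not analysed here.

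Outside hepatocytes, Bhlhe40 was again lower in both fasted libraries of endothelial cells, Kupffer cells or macrophages and stellate cells. In endothelial cells it had 29.7 and 19.1 CPM in fasted libraries, against 86.6 and 137 CPM in fed libraries (log2 fold change -2.14, SE 0.49). In Kupffer cells or macrophages it had 28.4 and 27.1 CPM in fasted libraries, against 59.7 and 163 CPM in fed libraries (-1.87, SE 0.65). In stellate cells it had 31.3 and 14.2 CPM in fasted libraries, against 89.3 and 134 CPM in fed libraries (-2.05, SE 0.58). In T or NK cells Bhlhe40 had 34.1 and 34.3 CPM in fasted libraries, against 87.1 and 313 CPM in fed libraries, the last from 2 UMIs. In B or plasma cells it had 24.4 and 31.7 CPM in fasted libraries, against 51.3 and 66.0 CPM in fed libraries, on 2 to 7 UMIs each. In cholangiocytes it had 26.5 and 44.2 CPM in fasted libraries, against 82.3 CPM in fed 1 and 0 UMIs in fed 2, where 3 UMIs would give 139 CPM. The fed 2 levels rest on 21, 17 and 13 UMIs in endothelial cells, Kupffer cells or macrophages and stellate cells. Without fed 2 the fold change in Kupffer cells or macrophages was -1.01.

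Hepatocyte markers were found in every other type. The 8 hepatocyte markers summed to 48.8% to 79.3% of the hepatocyte level of the same library in endothelial cells, 54.0% to 85.0% in Kupffer cells or macrophages and 30.3% to 74.1% in stellate cells. Bhlhe40 in endothelial cells was at 89.0% and 67.6% of the hepatocyte level in fasted libraries and at 82.2% and 104% in fed libraries. That was above the marker percentage in 4 of 4 libraries. How much of the Bhlhe40 signal outside hepatocytes comes from hepatocyte RNA was not tested. In the other direction, the 10 endothelial markers summed in hepatocytes to at most 1.31% of their level in endothelial cells.

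Arntl in endothelial cells and in Kupffer cells or macrophages, and Clock in endothelial cells, were above the hepatocyte level in 4 of 4 libraries. Arntl in endothelial cells had 35.6 and 156 CPM in fasted 1 and fasted 2, against 15.5 and 26.1 CPM in fed 1 and fed 2. The endothelial level was 3.98, 4.73, 1.95 and 3.63 times the hepatocyte level in fasted 1, fasted 2, fed 1 and fed 2, the last on 4 UMIs. In Kupffer cells or macrophages Arntl had 32.7 and 72.7 CPM in fasted libraries, against 53.6 and 57.4 CPM in fed libraries, which was 2.21 to 7.97 times the hepatocyte level, the highest ratio on 6 UMIs in fed 2. Clock in endothelial cells had 216 and 217 CPM in fasted libraries, against 195 and 124 CPM in fed libraries, which was 1.28 to 1.64 times the hepatocyte level. Clock in cholangiocytes was also above the hepatocyte level in 4 of 4 libraries, at 1.12 to 1.34 times, on 2 UMIs in fed 2. Elsewhere the libraries differed. Clock in Kupffer cells or macrophages was at 0.76 of the hepatocyte level in fed 2 and above it in the other 3 libraries. In stellate cells Clock was above it in 2 of 4 libraries, and Arntl was at 0.58 of it in fed 1 and above it in the other 3.

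Ordered by mean level over 5 types and all 4 libraries, Arntl ran from endothelial cells over Kupffer cells or macrophages, cholangiocytes and stellate cells to hepatocytes, and Clock ran from endothelial cells over cholangiocytes, Kupffer cells or macrophages and hepatocytes to stellate cells. The first place of endothelial cells for Arntl rests on fasted 2, since Kupffer cells or macrophages were higher in both fed libraries. Their median ratio to hepatocytes was 5.21, against 3.8 in endothelial cells. The other 8 factors had their highest mean of these 5 types in hepatocytes. Neighbouring types overlapped in each of these orders, with 1 exception: Per2 in Kupffer cells or macrophages (at most 58.4 CPM) lay below Per2 in hepatocytes (at least 63.4 CPM). Tef, Dbp, Per2, Per1, Nr1d1 and Nfil3 were lower in endothelial cells than in hepatocytes in 4 of 4 libraries, Nfil3 on 32 UMIs. Tef, Dbp and Per2 were also lower in 4 of 4 libraries in Kupffer cells or macrophages and in stellate cells. Endothelial Tef was at 0.46 to 0.52 times the hepatocyte level. That lay under the hepatocyte marker share in fasted 1, fasted 2 and fed 2 and above it in fed 1, and the part of hepatocyte RNA in it was not tested. Bhlhe41 had 0 UMIs in Kupffer cells or macrophages and in cholangiocytes, 3 in endothelial cells and 6 in stellate cells over the 4 libraries. In endothelial cells 3 UMIs would give 1.37 to 19.6 CPM per library, and in fasted 2 and fed 2 that lies above the hepatocyte level, which was not detectable there.

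**Figure D2:**
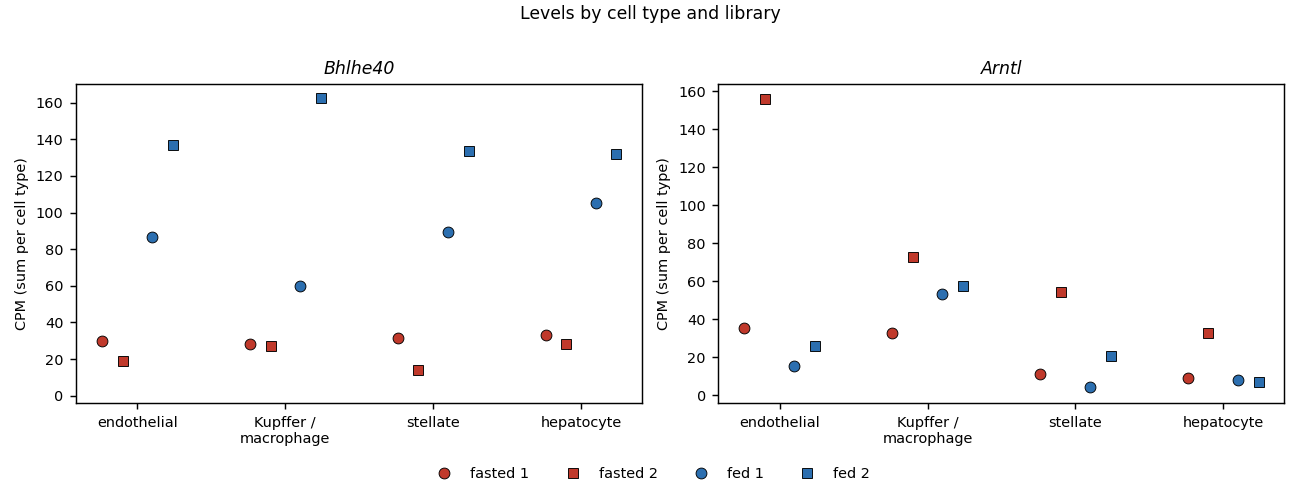
Bhlhe40 (left panel) and Arntl (right panel) in CPM by cell type, with the 2 fasted libraries left of the 2 fed libraries in each type and hepatocytes at the right. Bhlhe40 separates fasted from fed in all 4 types shown, whereas Arntl in endothelial cells reaches 156 CPM in fasted 2 and 35.6 CPM in fasted 1.

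Tested by feeding within each type, no factor was called by edgeR or DESeq2 with all 4 libraries in endothelial cells, Kupffer cells or macrophages, stellate cells or cholangiocytes. In endothelial cells 9 factors were tested, and 6 of the 10 did not overlap between groups, as 30.8% of genes did not. There edgeR called 5 genes in all (0.0503%) and DESeq2 0.201%. In endothelial cells 4 factors had an unadjusted p under 0.05, as had 3.53% of genes: Bhlhe40, Nr1d1 (-1.82, SE 0.64), Arntl (2.39, SE 0.75) and Per1 (1.23, SE 0.52). Arntl was at 0.94 without fasted 2. With 1 library left out, whether endothelial Bhlhe40 and Arntl passed in edgeR depended on the library. Such a fit measures no spread in the group left with 1 library, so its adjusted p is not given. Clock had a log2 fold change of 0.37 (SE 0.37). In Kupffer cells or macrophages 7 factors were tested, of which 2 lay higher and 1 lower in both fasted libraries. Of all genes tested there, 28.0% did not overlap. There edgeR called 0.0% of 8181 genes and DESeq2 0.11%, and 1 of 7 factors, Bhlhe40, had an unadjusted p under 0.05, as had 2.91% of genes, and Arntl had -0.04 (SE 0.59). In stellate cells 8 factors were tested, of which 2 lay higher and 1 lower in both fasted libraries. Of all genes tested there, 27.1% did not overlap. There edgeR called 0.041% of genes and DESeq2 0.123%, and 1 of 8 factors, again Bhlhe40, had such a p, as had 3.29% of 7321 genes, and Arntl had 2.02 (SE 1.08) on 49 UMIs. In cholangiocytes none of 3 did, against 5.23% of 3979 genes, where edgeR called 0.126% and DESeq2 0.0754%.

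Whether the feeding difference itself differed between types was tested as an interaction with the library as a block. No factor was called by edgeR or DESeq2 for any of 4 types against hepatocytes. EdgeR called 0.408% of genes for endothelial cells, 0.297% for Kupffer cells or macrophages, 0.201% for stellate cells and 0.00789% for cholangiocytes. DESeq2 called 0.189%, 0.0305%, 0.0% and 0.0% in the same order. At an edgeR unadjusted p under 0.05 the counts were 1, 2, 0 and 1 of 10 factors in that order, and the shares of all genes were 5.22%, 4.45%, 3.56% and 3.67%. These were Arntl in endothelial cells, Dbp and Arntl in Kupffer cells or macrophages, and Nr1d1 in cholangiocytes on 14 UMIs. Each 10 includes factors with fewer than 40 UMIs in the type. Bhlhe41 had 0 UMIs in Kupffer cells or macrophages and in cholangiocytes, so its tests there could show no difference. The Bhlhe40 feeding difference in endothelial cells minus that in hepatocytes was -0.15 (SE 0.33), and in Kupffer cells or macrophages it was 0.25 (SE 0.43). For Arntl the same differences were 1.00 (SE 0.46) and -1.33 (SE 0.54). A difference between types within these errors was not detectable.

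In hepatocytes, Arntl, Dbp, Nr1d1 and Tef differed more between the fasted libraries than between the group means. Between fasted 2 and fasted 1, Arntl was 3.68 times as high in hepatocytes (95% counting interval 3.12 to 4.35). It was 4.38 times as high in endothelial cells (3.32 to 5.81), 2.22 in Kupffer cells or macrophages (1.39 to 3.61) and 4.82 in stellate cells (2.55 to 9.15). On 6 to 17 UMIs per library, it was 5.67 in cholangiocytes (2.01 to 18.2), 1.10 in T or NK cells (0.49 to 2.40) and 1.55 in B or plasma cells (0.51 to 5.18). Of all genes, 5.32% in hepatocytes, 5.2% in endothelial cells, 6.43% in Kupffer cells or macrophages and 12.0% in stellate cells were higher by at least 2 times. Npas2, which can stand in for Clock as the partner of Arntl, was 7.96 times as high in endothelial cells (2.87 to 27.3) and 6.15 in stellate cells (3.58 to 10.7).

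Dbp, Nr1d1 and Ciart, targets of the activators, were lower in fasted 2 hepatocytes than in fasted 1 hepatocytes. Dbp in fasted 2 was 0.33 times its fasted 1 level in hepatocytes (0.29 to 0.37), 0.40 in endothelial cells (0.19 to 0.78), 0.32 in Kupffer cells or macrophages (0.15 to 0.61) and 0.35 in stellate cells (0.11 to 0.86). Nr1d1 was 0.45 times as high in hepatocytes (0.38 to 0.53), but 1.05 times as high in endothelial cells (0.36 to 2.77, 7 and 14 UMIs), 1.02 in Kupffer cells or macrophages (0.32 to 3.07) and 0.50 in stellate cells (0.13 to 1.41). Ciart was 0.56 times as high in hepatocytes (0.52 to 0.60), 0.44 in endothelial cells (0.29 to 0.66), 0.66 in Kupffer cells or macrophages (0.43 to 1.02) and 0.16 in stellate cells (0.06 to 0.35). Of all genes, 11.8% in hepatocytes, 9.05% in endothelial cells, 11.2% in Kupffer cells or macrophages and 11.9% in stellate cells were lower by at least 2 times. Per2 and Per1 stayed near 1, at 1.01 and 1.10 in hepatocytes, and Bhlhe40 was at 0.85. Endothelial Dbp was at 0.47 and 0.59 of the hepatocyte level in fasted 1 and fasted 2. Hepatocyte markers there summed to 54.8% and 51.3% of the hepatocyte level. In Kupffer cells or macrophages Dbp was at 0.97 and 0.95, against 65.3% and 74.4% for the markers. In stellate cells it was at 0.62 and 0.66, against 74.1% and 30.3%. How far hepatocyte RNA shapes the ratios of fasted 2 to fasted 1 outside hepatocytes was not tested.

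Dbp, Nr1d1 and Ciart were also lower in fed 2 hepatocytes than in fed 1 hepatocytes, but Arntl was not higher. Arntl was at 0.91 (0.64 to 1.27), Dbp at 0.64 (0.55 to 0.74), Nr1d1 at 0.74 (0.61 to 0.89) and Ciart at 0.33 (0.28 to 0.39). Per1 was at 0.58 (0.49 to 0.68), Clock at 0.61 (0.55 to 0.67) and Tef at 1.45 (1.38 to 1.53). Fed 2 is the shallowest library, and 20.7% of genes were lower by at least 2 times in its hepatocytes and 11.1% higher by as much. These intervals cover counting error only, since each ratio compares 1 library with 1 library, and UMI counts of 1 pool are not animals. Time of collection, which the sources used here do not give, cannot be told apart from the library.

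**Figure D3:**
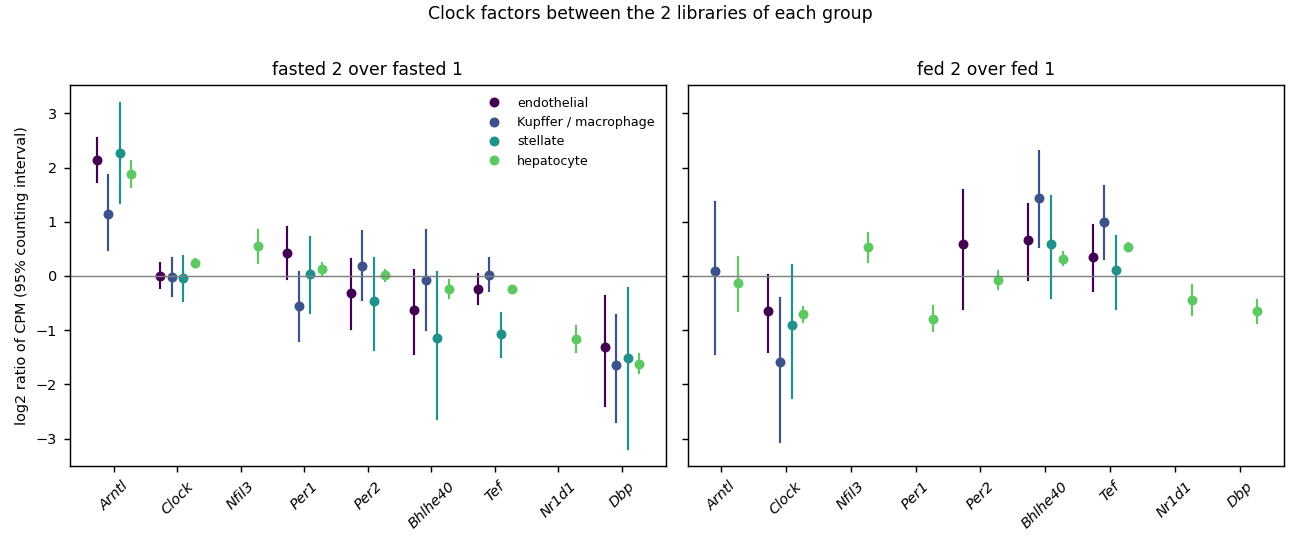
Log2 ratio of CPM between the libraries of a group, fasted 2 over fasted 1 (left panel) and fed 2 over fed 1 (right panel). Each factor except Bhlhe41, which is not drawn, is shown where it had at least 40 UMIs over the pair and more than 3 in each library. Colours are cell types and lines are 95% counting intervals. Arntl lies above 0 and Dbp below 0 in all 4 types between the fasted libraries. The part of hepatocyte RNA in the other types was not tested.

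Promoters are shown for Arntl and Nfil3, which hold a REV-ERB/ROR core, and for Nr1d1, whose product binds that core. Binding at these promoters was not tested. RefSeq promoters of GRCm38.p6, 250 bases before to 50 after a start, matched 8 of the 10 factors, all but Bhlhe40 and Per2. Capitals mark the motif, read on the gene's strand.
Arntl, chr7:113207261-113207560, + strand: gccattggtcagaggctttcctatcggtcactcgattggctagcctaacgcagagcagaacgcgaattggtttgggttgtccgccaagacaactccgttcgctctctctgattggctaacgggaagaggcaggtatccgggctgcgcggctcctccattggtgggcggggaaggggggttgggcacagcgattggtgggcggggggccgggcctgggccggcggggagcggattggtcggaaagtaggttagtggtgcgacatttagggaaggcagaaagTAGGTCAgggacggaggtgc
Nfil3, chr13:52980990-52981289, - strand: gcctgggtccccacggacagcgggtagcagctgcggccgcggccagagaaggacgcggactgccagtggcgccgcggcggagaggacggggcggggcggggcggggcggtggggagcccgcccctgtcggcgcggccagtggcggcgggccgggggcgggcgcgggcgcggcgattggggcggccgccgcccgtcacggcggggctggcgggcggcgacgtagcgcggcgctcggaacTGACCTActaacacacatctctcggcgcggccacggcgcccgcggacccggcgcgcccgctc
Nr1d1, chr11:98775328-98775627, - strand: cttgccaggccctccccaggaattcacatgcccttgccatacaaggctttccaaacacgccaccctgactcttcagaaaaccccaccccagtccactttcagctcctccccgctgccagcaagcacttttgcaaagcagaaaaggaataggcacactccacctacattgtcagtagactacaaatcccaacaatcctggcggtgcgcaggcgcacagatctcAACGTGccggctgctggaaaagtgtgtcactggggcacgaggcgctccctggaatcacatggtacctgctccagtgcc

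The core TAGGTCA, searched on both strands, begins 30 bases after the start in Arntl and lies on the reverse strand 12 bases before it in Nfil3. It occurs in 2.61% of 32851 promoters of the same length. Another Arntl window, chr7:113207215-113207514, held none of the letters searched. The E-prime box CACGTT lies on the reverse strand of Nr1d1 (4.68% of promoters). The E-box CACGTG, bound by Arntl with Clock and by Bhlhe40 and Bhlhe41, was found in the windows of Bhlhe41, Per1 and Tef (7.15% of promoters). D-box letters TTATGTAA and TTACGTAA and the CRE letters TGACGTCA were in none of the 13 windows of the 8 factors (0.938%, 0.119% and 1.79% of promoters). The Dbp and Clock windows held none of these letters.

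Deviations from the type mean were compared over 16 sums (4 libraries in 4 types). They gave r = -0.84 for Arntl with Nr1d1, -0.85 for Bhlhe40 with Per1, -0.81 for Bhlhe40 with Clock and 0.76 for Per1 with Clock. These 4 were named as the largest r in size of all pairs without Bhlhe41. The other pairs ran from -0.74 (Nfil3 with Clock) to 0.71 (Dbp with Clock), and Arntl with Clock was at 0.17. The sums share 4 libraries and hepatocyte RNA, so these are descriptions. By the same measure over 10975 genes, genes most like Bhlhe40 included the complement gene C8a (0.97) and Gm12718 (0.97). Those most like Clock were the glucocorticoid target Fkbp5 (0.97), Bmper (0.96) and Gm49838 (0.95). Those most like Tef were Rgs16 (0.95), Prox1 (0.88) and Trp53bp2 (0.87), and for Arntl they were Tbc1d20 (0.87), Cep164 (0.87) and Mef2d (0.85). For Dbp they were Ifi30 (0.97), Rtcb (0.96) and Gpx1 (0.96), and for Nr1d1 C1qb (0.85), Sntg2 (0.84) and AI182371 (0.83). Per1 was most like Rbm18 (0.95), Sesn1 (0.92) and Selenoo (0.89), Per2 like Cib3 (0.87), Psmd5 (0.84) and Trf (0.82), and Nfil3 like Brwd1 (0.93), Tbc1d30 (0.91) and Tepsin (0.91). Over levels rather than deviations, in 20 sums of 5 types, the closest gene was Tmem39a for Bhlhe40 (0.93), Zranb1 for Tef (0.99), L3mbtl3 for Per2 (0.97, with Tef next at 0.97), Coasy for Dbp (0.96), Commd6 for Clock (0.89), Scaf1 for Arntl and Creld1 for Nr1d1 (0.86 each), Cdip1 for Per1 (0.81) and Nfyb for Nfil3 (0.80).

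Along the liver lobule, 4 factors differed between hepatocytes near the central vein and hepatocytes near the portal tract. Nuclei with at least 1500 UMIs (1544 to 4805 per library) were ranked by 9 pericentral and 11 periportal landmark genes, none a clock gene, split into 3 equal groups (periportal, middle and pericentral) and summed. Bhlhe40 fell towards the central vein. It had 28.6 and 20.4 CPM in the pericentral group of fasted 1 and fasted 2 and 75.6 and 98.5 CPM in that of fed 1 and fed 2, against 35.9 and 39.5 CPM in the periportal group of the fasted libraries and 123 and 136 CPM in that of the fed libraries. It was lower in the pericentral group in 4 of 4 libraries, with the middle group in between in each (log2 difference -0.64, SE 0.10, edgeR adjusted p = 0.000127).

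Per2 had 66.0 and 61.6 CPM in the pericentral group of the fasted libraries and 63.9 and 63.0 CPM in that of the fed libraries, against 81.7 and 83.2 CPM and 76.4 and 71.4 CPM in the periportal groups in the same order. That difference was smaller and also found in 4 of 4 libraries (-0.34, SE 0.08, edgeR adjusted p = 0.00491). Arntl had 8.26 and 27.9 CPM in the pericentral group of the fasted libraries and 6.46 and 4.60 CPM in that of the fed libraries, against 8.88 and 40.9 CPM and 10.3 and 9.80 CPM in the periportal groups (-0.52, SE 0.15, edgeR adjusted p = 0.0266). It was lower in 4 of 4 libraries, in fasted 1 by the least.

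Bhlhe41 was higher in the pericentral than in the periportal group. It had 2.20 and 1.67 CPM in the pericentral group of the fasted libraries and 6.28 and 3.28 CPM in that of the fed libraries, against 0.52 and 1.42 CPM and 1.90 and 1.40 CPM in the periportal groups. These levels rest on 16, 11, 36 and 5 pericentral UMIs, against 3, 8, 9 and 2 periportal UMIs. It was higher in 4 of 4 libraries (1.29, SE 0.42, edgeR adjusted p = 0.0483). The middle group, at 1.51, 2.11, 5.66 and 5.94 CPM in fasted 1, fasted 2, fed 1 and fed 2, was the highest of the 3 in fasted 2 and fed 2. Between the end groups, the difference of Bhlhe41 had the opposite sign to that of Bhlhe40.

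**Figure D4:**
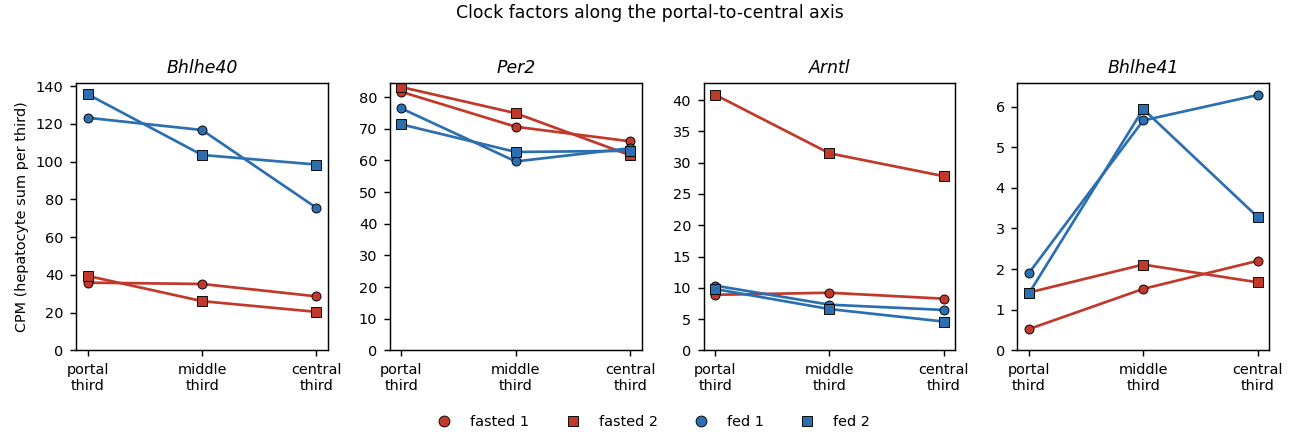
Levels in CPM, on axes that start at 0, of the 4 factors called between the pericentral and periportal groups of hepatocytes, from the periportal to the pericentral group, with 1 line per library. Bhlhe40, Per2 and Arntl are lower in the pericentral group in 4 of 4 libraries, and Bhlhe41 is higher in 4 of 4.

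The 4 calls among 10 factors, 1 higher and 3 lower, compare with 15.8% of 12328 genes called, 7.85% higher and 7.95% lower. The other 6 factors were not called: Nr1d1 had 0.34 (SE 0.13), Nfil3 -0.21 (SE 0.16), Per1 -0.15 (SE 0.10), Clock -0.08 (SE 0.07), Tef -0.02 (SE 0.06) and Dbp 0.01 (SE 0.11). DESeq2 called 2, Bhlhe40 and Per2 (11.0% of genes). Bhlhe40 was called whichever library was left out, Per2 was lost without fasted 2 and Arntl without fasted 2 or fed 1. Bhlhe41 was lost without fasted 1, fed 1 or fed 2, and Nr1d1 was called without fed 2. The difference between zones did not pass as different between fasted and fed for any of the 10 factors (edgeR called 0.576% of genes, 1 factor had an unadjusted p under 0.05, as had 7.58% of genes, and DESeq2 called 0.0324% of genes and none of the factors).

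Other clock genes were also called between these zones. Cry1, which encodes a partner of the PER proteins, fell by 0.79 (SE 0.15) on the log2 scale towards the central vein, and Ciart by 0.42 (SE 0.08). Cipc, an inhibitor of Clock, rose by 0.48 (SE 0.07), Csnk1e, a kinase of PER proteins, by 0.77 (SE 0.24) and Rora by 0.26 (SE 0.05). Markers of endothelial cells and of Kupffer cells or macrophages moved with the zone in 4 of 4 libraries. The 10 endothelial markers summed to 42.8, 12.9, 27.6 and 25.6 CPM in the pericentral group of fasted 1, fasted 2, fed 1 and fed 2, against 14.6, 3.20, 13.3 and 20.3 CPM in the periportal group. The 10 Kupffer cell or macrophage markers summed to 143, 132, 86.7 and 106 CPM, against 105, 79.4, 61.6 and 71.4 CPM in the same order. Stellate markers summed to 103, 109, 66.7 and 105 CPM, against 108, 87.4, 79.2 and 122 CPM. Cholangiocyte markers summed to 123, 89.6, 99.3 and 139 CPM, against 129, 88.0, 133 and 143 CPM. The part of these markers in the differences between zones was not tested.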

How the data were processed

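Nuclei were captured in droplets (10x Genomics) and counted with Cell Ranger 6.0 against mm10, per the submitters' processing notes. The deposited matrices hold UMI counts per gene and nucleus that the authors had filtered to called cells. Of stored entries, 13.2% to 17.0% were 0 and were read as 0. The sources used here do not say whether counting used strand or introns.

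Nuclei were kept from 500 genes upward and up to 5% mitochondrial counts, and the highest Scrublet scores were removed at 0.8% per 1000 barcodes. The automatic Scrublet threshold marked 2011, 0, 1 and 1 nuclei and was an alternative only. Each count was scaled and clustered on 2000 variable genes without clock genes (scanpy 1.11.5, 30 components, 15 neighbours, Leiden resolution 1), and clusters were named from fixed markers. An unnamed cluster of 134 nuclei was led by mitochondrial genes and left out.

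Counts were summed per library and type (at least 20 nuclei in each library) and tested with edgeR 4.0.16's quasi-likelihood F-test over all genes after a low-count filter, with Benjamini-Hochberg adjustment at 0.05. Interactions and zones had the library as a block, and zones used nuclei thinned to 1500 UMIs for ranking. T or NK cells had 6 nuclei in fed 2 and were not tested. B or plasma cells reached the minimum but were not among the planned types and are described only. Fitted values are given for factors with at least 40 UMIs in a type, a minimum chosen after seeing the data. The SE of an edgeR value is the size of its log2 fold change divided by the square root of its F. Ratios of 2 libraries carry exact 95% binomial (Clopper-Pearson) intervals, which cover counting error only. DESeq2 1.42.0, other scaling (RLE), no filter, leaving out libraries, a replicate block, counting stored zeros as 1, other nucleus filters and zone cuts were alternatives. The fits were tested on simulated data.

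The 10 factors and 5 gene lists were chosen with earlier results of these data known. Named genes were all 10 factors, up to 5 genes per list with the smallest unadjusted p in hepatocytes, and the 3 genes closest to each factor by r of log2(CPM + 1) among genes of at least 5 CPM. Npas2 and Ciart in the comparison of libraries, and the other clock genes given for zones, were named after their values were seen. Some results that these rules would name are not reported here.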

Additional observations from a re-analysis of the deposited data

How the results depend on the processing

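Depth limited the rarer types and the fed 2 library, and with 2 libraries a group the counts of calls moved widely with the settings. In a comparison by feeding, a fit with 1 library left out leaves 1 group with 1 library. Its count of calls rests on no spread within that group. The number of genes called between fasted and fed hepatocytes was 1, and 4 to 651 with 1 library left out, 0 with RLE scaling, 276 without a low-count filter, 168 with a replicate block, 163 with DESeq2, 0 with stored zeros counted as 1 and 0 with at least 800 genes per nucleus. In endothelial cells it was 5, and 7 to 192, 42 without the filter, 33 with the replicate block, 20 with DESeq2, 1 with automatic doublet thresholds and 1 with at least 800 genes. In Kupffer cells or macrophages it was 0, and 0 to 11, 22 without the filter, 41 with the replicate block, 9 with DESeq2, 2 with stored zeros and 2 with automatic doublet thresholds. In stellate cells it was 3, and 0 to 39, 13 without the filter, 7 with the replicate block and 9 with DESeq2. In cholangiocytes it was 5, and 1 to 20, 10 with the replicate block, 3 with DESeq2, 22 with automatic doublet thresholds and 0 with at least 800 genes. For the feeding difference against hepatocytes it was 54 in endothelial cells, and 6 to 266, 130 without the filter, 25 with DESeq2 and 174 with stored zeros. It was 39 in Kupffer cells or macrophages, and 0 to 163, 4 with DESeq2 and 21 with stored zeros. It was 27 in stellate cells, and 16 to 109, 0 with DESeq2 and 4 with stored zeros, and RLE scaling moved the median of all genes there by -0.14. It was 1 in cholangiocytes, and 0 to 8, 5 with RLE scaling, 5 without the filter and 0 with DESeq2. Between zones it was 1948, and 1328 to 1896, with 1353 by DESeq2. For zone by feeding it was 71, and 26 to 197, 131 without the filter, 4 with DESeq2 and 46 with 2 zone groups in place of 3.

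Of the clock factors, edgeR called 0 between fasted and fed hepatocytes, and 0 to 2 with 1 library left out, 1 without the filter, 1 with the replicate block (Bhlhe40, adjusted p = 0.0226) and 1 with DESeq2. Adjusted p of Bhlhe40 in hepatocytes was 0.00103 without the filter. In endothelial cells it called 0, and 0 to 2, 2 without the filter (Bhlhe40, 0.0440, and Arntl, 0.0367) and 1 with the replicate block (Bhlhe40, 0.0391). Between zones it called 4, and 2 to 4, 2 with DESeq2 and 2 with 2 zone groups. In every other comparison no factor was called under any alternative run. The log2 fold change of Arntl in Kupffer cells or macrophages was -0.04, and -0.75 to 0.45 with 1 library left out, 0.020 without the filter, 0.029 with stored zeros and 0.29 with automatic doublet thresholds. In hepatocytes Tef ran from -0.25 to 0.43 and Dbp from -1.36 to 0.19 with 1 library left out. The Bhlhe40 difference against hepatocytes ran from -0.43 to 0.082 in endothelial cells and from -0.48 to 0.86 in Kupffer cells or macrophages. Between zones Dbp ran from -0.10 to 0.13 and Tef from -0.065 to 0.017. Where a value changed, the cause was not tested.

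Whether the same replicate number marks a shared day or batch is not in the labels, and with 2 pairs the numbers were not taken to pair the libraries. Deviations of same-numbered libraries correlated at 0.43 in hepatocytes, 0.38 in endothelial cells, 0.44 in Kupffer cells or macrophages, 0.20 in stellate cells and 0.14 in cholangiocytes. T or NK cells, planned as a further type, were not run.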

Other observations

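Other gene lists in hepatocytes had no gene called by edgeR between fasted and fed libraries. The rhythmic liver output list had 15 genes tested and a median log2 fold change of 0.01. Its gene with the smallest p, the ganglioside enzyme St3gal5, had 1161 and 1663 CPM in fasted libraries, against 488 and 412 CPM in fed libraries (1.63, SE 0.35). The 11 glucocorticoid targets, Per1 among them, had a median of 0.73, with 8 positive. Tat, a classic glucocorticoid target in liver, had 2873 and 1964 CPM in fasted libraries, against 1750 and 642 CPM in fed libraries (1.01, SE 0.49). Dusp1 from the same list had 9.01 and 3.95 CPM in fasted libraries, against 20.4 and 12.9 CPM in fed libraries (-1.40, SE 0.52). The immediate early list had 12 genes tested and a median of -1.49. Its summed level was 52.1 and 59.2 CPM in fasted libraries, against 88.3 and 187 CPM in fed libraries. Junb, an AP-1 subunit, had 9.97 and 6.44 CPM in fasted libraries, against 22.5 and 21.9 CPM in fed libraries (-1.48, SE 0.40). The acute phase list had 11 genes tested and a median of -2.09, but fed 1 stood apart. Serum amyloid Saa1 had 12.2 and 0.88 CPM in fasted libraries, against 390 CPM in fed 1 and 1.65 CPM in fed 2. The part of these lists in the levels of the clock factors was not tested.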
